A study of Mus musculus with 28 samples.

Results

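A set of 10 genes of the integrated stress response was followed through the RNA-seq, chromatin RNA, and ChIP-seq data of mouse ES cells (mESCs) depleted of FACT. It was chosen by name and makes up 10 of the 15384 genes with RNA-seq values per library. These are the transcription factor *Atf4*, the stress regulators *Ddit3*, *Ddit4*, and *Trib3*, the enzymes *Asns*, *Chac1*, *Psat1*, and *Phgdh*, the transporter *Slc7a11*, and the transcription factor *Xbp1*. FACT is a histone chaperone made of SSRP1 and SUPT16 that takes nucleosomes apart and rebuilds them during transcription. Cells were of the E14 line, an established line grown here without feeders on gelatin in serum with LIF and 550 µM 2-mercaptoethanol. The 4 control libraries came from cells given a scramble shRNA vector and the 4 knock-down (KD) libraries from cells given *Ssrp1* shRNA vectors; both carried a puromycin marker, were put under 2 µg/ml puromycin 48 h after transfection for a further 24 h, and received ERCC spike-in RNA. The model is a partial and short depletion in a single cell line. Chromatin-associated RNA (2 libraries) and ChIP-seq of SSRP1 and SUPT16 came from E14 cells with no KD label. Early neural progenitor cells (NPCs) came from E14 cells differentiated with 1 µM retinoic acid for 4 days and then cultured without LIF for 3 days.

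The integrated stress response is set off by 4 kinases that phosphorylate the initiation factor eIF2α. General translation then drops while the *Atf4* mRNA, held back by upstream reading frames in unstressed cells, is translated more. ATF4 protein binds C/EBP-ATF response elements, with the core TGATGNAA, and switches on genes for amino acid synthesis, amino acid import, tRNA charging, and, under long stress, cell death. An mRNA level of *Atf4* therefore does not give the amount or activity of its protein, which was not measured in the files used here. XBP1 belongs to a neighbouring pathway, the unfolded protein response of the endoplasmic reticulum (ER), where IRE1 splices its mRNA; the values per gene used here do not separate spliced from unspliced *Xbp1*.

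Values per library are gene counts scaled to library size by the authors, and are called library-size values here. They were not brought to equal totals: they summed to 825584 to 909417 in control and 1.14e+06 to 1.18e+06 in KD libraries. Each library rested on 4602278 to 6680919 recovered reads in control and 9433193 to 19856032 in KD, so KD libraries were the deeper ones throughout. *Ssrp1* had values of 223 to 261 in control and 24.1 to 28.9 in KD, a log2 fold change of -3.15 ± 0.07 (SE), with no overlap between the groups. *Supt16* RNA, of the other FACT subunit, was at 319 ± 22.0 in control and 504 ± 20.2 in KD (SD, n = 4). Its log2 fold change was 0.66 with library-size values, 0.03 with quantile normalisation, 0.23 with total count scaling, and 1.69 with spike-in scaling. These are RNA values, and the paper reports by mass spectrometry that SUPT16 protein was lost along with SSRP1. The summed level of 9 ES cell markers was 1640 to 1762 in control and 4707 to 5193 in KD. That of the 5 measured fibroblast markers was 50.0 to 63.7 against 13.1 to 14.9, that of 6 primitive endoderm markers 65.9 to 95.6 against 27.3 to 32.0, that of 5 measured trophectoderm markers 684 to 935 against 573 to 613, and that of 6 neural markers 99.1 to 120 against 148 to 160. *Dcn*, *Lum*, and *Elf5* had no value. Depth and these markers therefore moved with the groups, and their part in the results that follow was not tested. In these bulk samples, fewer cells of a type and less RNA per cell cannot be told apart. The study's methods call the 4 libraries of each group biological replicates, and the labels do not say whether they came from separate transfections.

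The 10 promoters were read first, because they show which members carry the letters that ATF4 recognises. The RefSeq windows (GRCm38.p6) run from 250 bases before to 50 after the start site, and 10 of 10 members matched one. TGATGNAA was found on either strand in 4 of the 10 members, against 3.97% of 32851 promoter windows. These were *Trib3*, *Asns*, *Chac1*, and *Slc7a11*. The cAMP response element TGACGTCA (1.79% of windows) and the full ER stress element (ERSE, 0.119% of windows), both also searched on either strand, were found in 0 of the 10. A match is a description of letters and not a bound site, and a window without a match holds no information on sites further away. The promoters of the 4 members with a match are given in the direction of transcription, with the match in capitals, followed by those of *Phgdh* and *Xbp1*, which rose in the KD and hold no match. *Psat1*, the other member called higher by the rule given below, has 2 windows and holds no match in either. *Asns*, which holds a match, was also higher in every KD library than in every control library, but under the fold threshold of that rule.
Asns: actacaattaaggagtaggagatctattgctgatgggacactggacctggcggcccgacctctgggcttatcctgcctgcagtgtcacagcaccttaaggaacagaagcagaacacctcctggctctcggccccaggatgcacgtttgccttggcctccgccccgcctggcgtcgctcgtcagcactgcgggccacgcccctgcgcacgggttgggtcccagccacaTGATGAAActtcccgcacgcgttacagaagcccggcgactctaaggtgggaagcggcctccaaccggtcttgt
Slc7a11: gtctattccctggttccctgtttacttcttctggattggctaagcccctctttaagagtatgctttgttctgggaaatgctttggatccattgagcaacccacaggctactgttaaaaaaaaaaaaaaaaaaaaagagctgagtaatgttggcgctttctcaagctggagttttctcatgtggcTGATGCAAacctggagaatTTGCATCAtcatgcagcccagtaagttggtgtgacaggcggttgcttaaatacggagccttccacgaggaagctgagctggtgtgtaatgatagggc
Chac1: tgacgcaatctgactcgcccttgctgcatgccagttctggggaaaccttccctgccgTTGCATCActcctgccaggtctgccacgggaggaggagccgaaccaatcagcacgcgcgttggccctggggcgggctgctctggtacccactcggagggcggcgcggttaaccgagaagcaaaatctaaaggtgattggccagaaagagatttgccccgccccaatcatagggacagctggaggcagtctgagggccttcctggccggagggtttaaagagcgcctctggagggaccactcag
Trib3: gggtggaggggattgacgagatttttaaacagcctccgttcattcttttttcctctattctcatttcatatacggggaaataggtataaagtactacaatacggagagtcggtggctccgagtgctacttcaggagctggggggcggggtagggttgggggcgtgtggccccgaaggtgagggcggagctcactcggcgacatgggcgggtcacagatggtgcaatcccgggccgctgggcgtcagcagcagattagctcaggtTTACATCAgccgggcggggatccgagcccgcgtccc
Phgdh: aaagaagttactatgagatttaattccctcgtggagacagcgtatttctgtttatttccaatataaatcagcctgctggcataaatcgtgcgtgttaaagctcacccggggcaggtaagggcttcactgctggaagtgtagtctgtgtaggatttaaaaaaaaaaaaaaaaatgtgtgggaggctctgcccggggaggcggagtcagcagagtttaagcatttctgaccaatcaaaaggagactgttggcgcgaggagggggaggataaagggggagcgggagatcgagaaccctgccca
Xbp1: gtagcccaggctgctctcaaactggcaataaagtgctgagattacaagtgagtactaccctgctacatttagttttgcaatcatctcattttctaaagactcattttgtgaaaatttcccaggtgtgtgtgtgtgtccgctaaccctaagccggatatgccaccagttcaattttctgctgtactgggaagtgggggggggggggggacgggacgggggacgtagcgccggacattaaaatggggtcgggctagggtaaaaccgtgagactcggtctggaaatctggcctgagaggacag
In *Asns* (window chr6:7693160-7693459, minus strand) the match began 23 bases before the start site and read TGATGAAA. *Slc7a11* (chr3:50443564-50443863, minus strand) was the only member with 2 matches, TGATGCAA beginning 66 bases and its reverse complement TTGCATCA 47 bases before the start. *Chac1* (chr2:119350992-119351291, plus strand) held TTGCATCA 193 bases before the start. In *Trib3* (chr2:152344011-152344310, minus strand), TTACATCA began 14 bases after it. The windows of *Phgdh* (chr3:98339920-98340219, minus strand) and *Xbp1* (chr11:5520391-5520690, plus strand) are printed without capitals.

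The question of the main comparison was which of these genes change when FACT is depleted. The called genes, 3 in all, rose: *Phgdh* 3.73-fold, *Psat1* 3.02-fold, and *Xbp1* 2.27-fold as ratios of mean values. *Asns* was 1.67-fold higher, under the fold threshold. *Atf4*, *Ddit3*, *Ddit4*, *Trib3*, *Chac1*, and *Slc7a11* were not called. Called here means that limma, run on log2(value + 0.5) of all 15384 genes, gave an adjusted p below 0.01 and a log2 fold change past 1 in either direction. By this rule 3 of 10 members were called higher and 0 lower, where 8.07% of all genes were called higher and 20.6% lower. The median log2 fold change was 0.08 for the members and -0.03 for all genes. At adjusted p below 0.01 alone 4 members were higher and 0 lower, against 35.4% and 37.3% of all genes. In 4 members every KD library lay above every control library, against 35.8% of all genes, and in 0 below, against 37.5%. With library-size values, by p or by overlap alone, the share of members higher was near the background, while the share lower was 0 of 10 members. The count lower by p depended on the scaling, as given below.

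**Figure D1:**
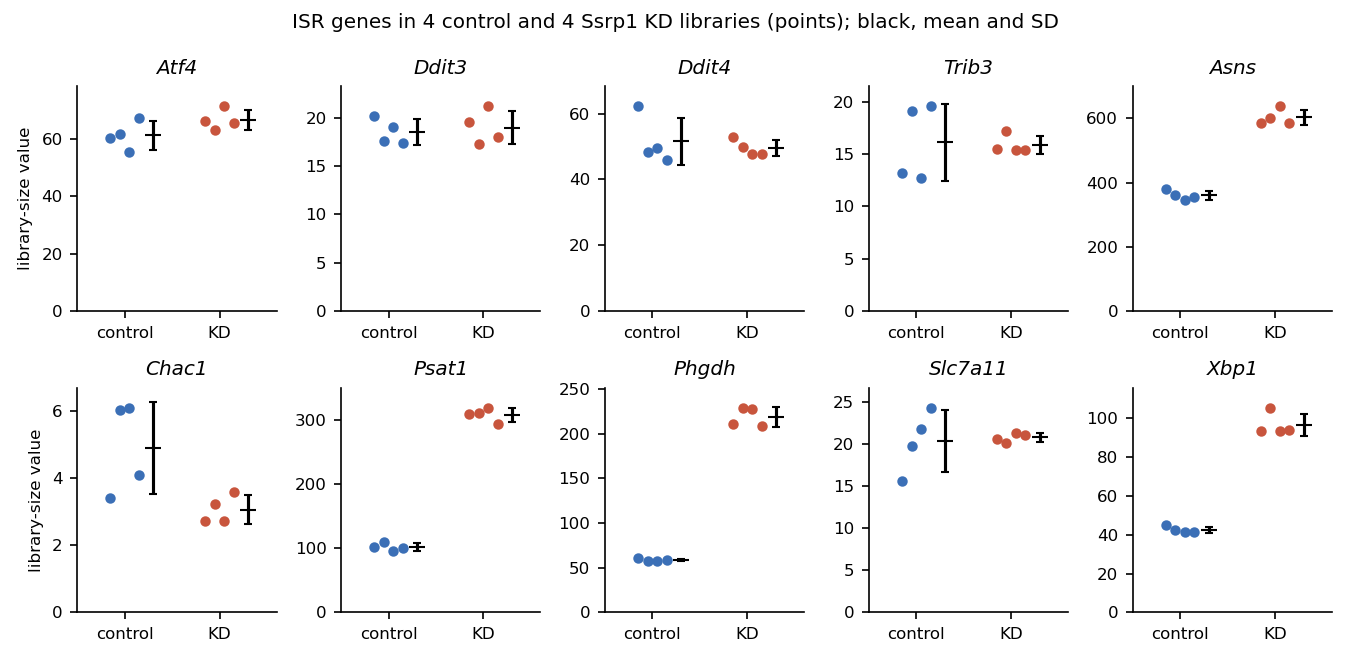
Library-size values (y axis, from 0) of the 10 genes in the 4 control (blue) and 4 KD (red) libraries, 1 point per library, with the mean and SD in black. *Psat1*, *Phgdh*, *Xbp1*, and *Asns* show KD points above all control points, and the groups overlap in the other 6 genes.

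*Atf4* (chr15:80255184-80257541, plus strand) encodes the central factor of the response. Its values, given here as for all members in the order of the replicate numbers, were 60.2, 61.8, 55.4, and 67.3 in control libraries. The KD libraries had 66.2, 63.3, 71.3, and 65.6. Control replicate 4 lay above 3 of the KD libraries, and the groups overlapped. Its log2 fold change of 0.12 ± 0.07 (SE) came with an adjusted p of 0.102 (limma) and an exact two-sided permutation p of 0.143. The genes nearest to *Atf4* in their profile over the 8 libraries, by root mean square difference of centred log2 values, were *Rfwd2* (0.0401), *Vps28* (0.0492), *BC002059* (0.0503), *Pcsk6* (0.0550), and *Ptcd1* (0.0553). None of these was called either, and their log2 fold changes ran from 0.07 to 0.11. Both follow from the choice of these genes by their profile over the same libraries.

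*Ddit3* (chr10:127290793-127296288, plus strand) encodes CHOP, the factor tied to cell death under long ER stress. It was at 20.1, 17.6, 19.0, and 17.4 in control and at 19.5, 17.2, 21.2, and 18.0 in KD. The lowest and the highest of the 8 values were both KD libraries. On the log2 scale the difference was 0.03 ± 0.10 (adjusted p = 0.773, limma). *Ddit3* overlaps *Mars1* and *Mbd6* on the opposite strand. The library kit keeps strand, but none of the sources used here says whether the counting did, so reads of these genes may be shared.

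*Ddit4* (chr10:59949675-59951770, minus strand) encodes REDD1, an inhibitor of mTORC1 that responds to many stresses. Control libraries had 62.2, 48.4, 49.7, and 46.0 and KD libraries 52.9, 49.8, 47.9, and 47.6. Control replicate 1 stood above the other 7 libraries, which lay close together. The log2 fold change was -0.05 ± 0.08 (adjusted p = 0.591, limma), and 0.04 without control replicate 1. *Trib3* (chr2:152337425-152344060, minus strand) encodes a pseudokinase that feeds back on ATF4. Its control values were 13.2, 19.1, 12.7, and 19.6, a spread that enclosed the KD values of 15.4, 17.2, 15.4, and 15.4. KD minus control was -0.00083 ± 0.13 on the log2 scale (adjusted p = 0.995, limma).

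Serine synthesis gave the largest differences among the members. *Phgdh* (chr3:98313171-98339969, minus strand) encodes phosphoglycerate dehydrogenase, the first enzyme of the pathway from glycolysis to serine. Its values were 61.0, 57.8, 57.6, and 58.4 in control and 210, 229, 228, and 208 in KD. The lowest KD library was more than 3 times the highest control library. The log2 fold change was 1.89 ± 0.06 (adjusted p = 3.36e-20, limma), above 99.5% of all genes. A named pseudogene, *Phgdh-ps1* on chromosome 7, could share reads with it.

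*Psat1* (chr19:15905123-15925059, minus strand) encodes the phosphoserine aminotransferase of the next step. It was at 102, 110, 96.3, and 100.1 in control and at 309, 310, 319, and 294 in KD. Both groups were tight, and they were far apart. The log2 fold change was 1.59 ± 0.06 (adjusted p = 6.11e-19, limma), above 98.8% of all genes. *Asns* (chr6:7675171-7693182, minus strand) encodes asparagine synthetase, which makes asparagine from aspartate and glutamine. Its values were 379, 361, 347, and 355 in control and 586, 602, 637, and 586 in KD. The groups did not overlap, and the log2 fold change was 0.74 ± 0.05 (adjusted p = 1.77e-12, limma), which did not reach the fold threshold. For *Phgdh*, *Psat1*, *Asns*, and *Xbp1* the exact two-sided permutation p was 0.0286, the smallest that 4 against 4 libraries can give.

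*Chac1* and *Slc7a11* act on glutathione from opposite sides. *Chac1* (chr2:119351242-119354326, plus strand), which encodes an enzyme that breaks glutathione down, was the least read member in KD replicate 1 (22 reads). Its values were 3.40, 6.02, 6.10, and 4.10 in control and 2.72, 3.22, 2.72, and 3.59 in KD. Only KD replicate 4 passed the lowest control library. A log2 fold change of -0.57 ± 0.21 resulted, with an adjusted p of 0.0166 (limma) and an exact permutation p of 0.0571. *Slc7a11* (chr3:50364936-50443613, minus strand) encodes the cystine importer that feeds glutathione synthesis. The control values of 15.7, 19.8, 21.9, and 24.3 enclosed the KD values of 20.6, 20.2, 21.4, and 21.1. This gave a log2 fold change of 0.05 ± 0.11 (adjusted p = 0.714, limma).

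*Xbp1* (chr11:5520967-5525872 in the deposited annotation, plus strand) was at 44.9, 42.5, 41.3, and 41.4 in control. KD libraries had 93.7, 105, 93.5, and 94.2. KD replicate 2 was highest, and every KD library was above 2 times every control library. Its log2 fold change was 1.17 ± 0.07 (adjusted p = 4.85e-15, limma), above 95.2% of all genes.

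The sign of the log2 fold change depended on the scaling for the 6 members whose groups overlapped, and not for *Phgdh*, *Psat1*, *Xbp1*, and *Asns*. The median log2 fold change over all genes was -0.03 with library-size values, 0.05 with quantile normalisation, -0.45 with CPM of the recovered reads, the total count scaling (added after seeing the data), and 0.95 with the deposited spike-in scaling. Of all called genes 28.2%, 47.8%, 6.81%, and 87.2% were higher in the same order. *Psat1* (1.59, 1.12, 1.16, and 2.61) and *Phgdh* (1.89, 1.49, 1.46, and 2.91) were called higher under all 4. *Xbp1* was at 1.17, 0.90, 0.75, and 2.19, so the call was lost to the fold threshold under quantile and total count scaling. *Asns* was at 0.74, 0.08, 0.31, and 1.76, with an adjusted p of 0.0694 (limma) under quantile normalisation. *Atf4* was at 0.12, -0.18, -0.30, and 1.14, and *Chac1* at -0.57, 0.56, -0.95, and 0.34. Under total count scaling, where the median of all genes was -0.45, the 6 members whose groups overlapped were lower at adjusted p below 0.01. With the fold threshold as well, no member was called lower there, while 4696 of all 15384 genes were. The share of all genes lower by adjusted p alone is not given for this scaling, so the count of members has no background. The adjusted p (limma) was 1.45e-04 for *Atf4*, 0.00189 for *Ddit3*, 4.31e-06 for *Ddit4*, 0.00826 for *Trib3*, 6.53e-04 for *Chac1*, and 0.00757 for *Slc7a11*. *Ddit4* was also lower at adjusted p below 0.01 under quantile normalisation (adjusted p = 0.00311, limma). Relative to the median of all genes, *Atf4* differed by 0.16, -0.23, 0.15, and 0.19, *Xbp1* by 1.21, 0.85, 1.20, and 1.24, and *Phgdh* by 1.92, 1.44, 1.91, and 1.95. Under spike-in scaling 7 of the 10 members were called higher, as were 7394 of all genes. The shift was not even across replicates. The ratio of summed spike-in to summed library-size values was 0.598 to 0.895 in control libraries. It was 0.921 in KD replicate 1, near the 0.895 of control replicate 4, and 1.50 to 1.85 in KD replicates 2, 3, and 4.

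**Figure D2:**
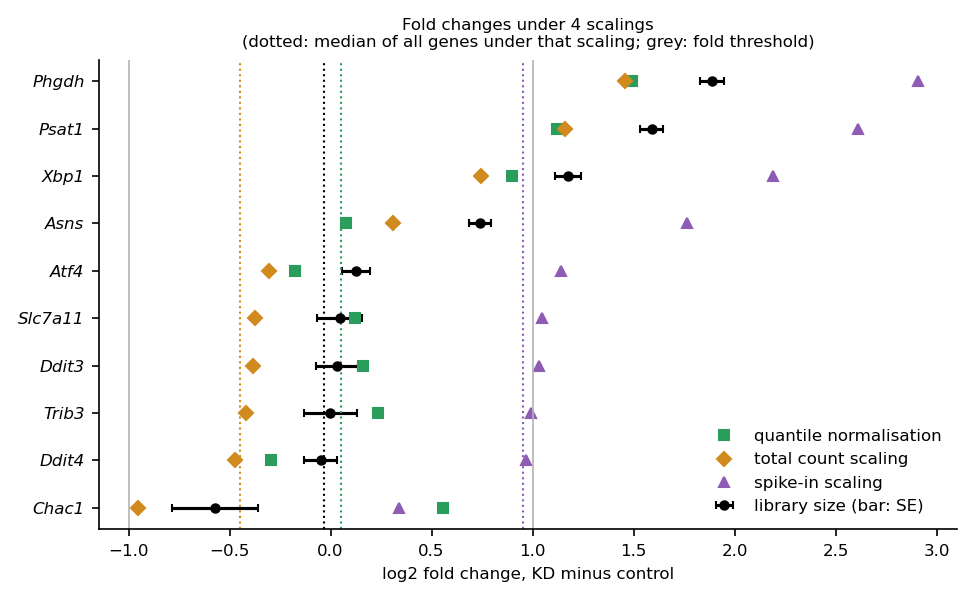
Log2 fold changes of the 10 genes, KD minus control, under library-size (black, with SE), quantile (green), total count (orange), and spike-in scaling (purple). Dotted lines give the median of all genes under each scaling and grey lines the fold threshold; *Phgdh* and *Psat1* lie right of the upper threshold under all 4 scalings.

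Levels were compared between genes as library-size value per kb of exon. In control libraries the order was *Asns* (187 ± 7.03), *Psat1* (41.0 ± 2.28), *Atf4* (35.5 ± 2.84), *Phgdh* (31.4 ± 0.834), *Ddit4* (30.6 ± 4.31), *Xbp1* (23.6 ± 0.936), *Ddit3* (21.3 ± 1.50), *Trib3* (7.87 ± 1.80), *Chac1* (3.13 ± 0.869), and *Slc7a11* (2.21 ± 0.399; SD, n = 4). The ranges overlapped between neighbours from *Psat1* through *Ddit4*, between *Xbp1* and *Ddit3*, and between *Chac1* and *Slc7a11*. In KD libraries *Asns* (313 ± 12.5) again stood first, followed by *Psat1* (124 ± 4.16), *Phgdh* (117 ± 5.84), *Xbp1* (53.7 ± 3.21), and *Atf4* (38.6 ± 1.96). *Atf4* thus ranked 3 in control and 5 in KD while its own level overlapped between the groups. Over NPC and ES cell libraries together, the authors' mean log2 expression of the members ran from 1.47 (*Chac1*) to 7.88 (*Asns*), and *Atf4* was at 6.72.

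The rest of the pathway was described with 96 other genes in 8 lists, 95 of them with a value (*Fgf21* had none). Of these 21 were called higher and 3 lower, with a median log2 fold change of 0.56, beside 8.07% and 20.6% of all genes. Enzymes of amino acid and one-carbon synthesis held more called genes than any other list (7 higher and 1 lower), and the eIF2α kinases held none. The called counts followed the scaling: 76 of the 95 were higher under spike-in scaling, 10 under quantile normalisation, and 3 under total count scaling. Of all 15384 genes, 7394, 1518, and 343 were called higher in the same order. Genes named from the lists by the rule had adjusted p of 4.42e-11 or lower (limma) and groups that did not overlap.

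Of the 12 genes of amino acid and one-carbon synthesis, 7 were called higher and 1 lower (median 1.03). *Mthfd1l*, a mitochondrial enzyme that releases formate, rose from 49.8 ± 4.36 to 151 ± 0.787 (log2 fold change 1.59 ± 0.06). *Shmt2*, which splits serine into glycine and a one-carbon unit in mitochondria, rose from 54.4 ± 2.74 to 164 ± 4.65 (1.59 ± 0.06). *Psph*, the last enzyme of serine synthesis, rose from 23.0 ± 1.45 to 57.6 ± 4.37 (1.31 ± 0.08). So the 3 steps from *Phgdh* over *Psat1* to *Psph* were all called higher with library-size values. The gene called lower was *Aldh1l2*, a mitochondrial folate enzyme, at 12.4 ± 5.12 in control and 4.51 ± 0.246 in KD. Its log2 fold change was -1.28 with library-size values and -1.68 with total count scaling. With quantile (-0.58) and spike-in scaling (-0.32) it did not reach the fold threshold. The difference between the list median and that of all genes was 1.06 with library-size values, 0.74 with quantile, and 1.05 with total count scaling.

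All 20 aminoacyl-tRNA synthetases, which charge tRNAs with amino acids, had log2 fold changes above 0, and 4 were called higher and 0 lower (median 0.82). These were *Gars* (167 ± 8.38 to 370 ± 4.60), *Farsa* (132 ± 3.58 to 275 ± 7.38), *Yars* (89.7 ± 5.54 to 187 ± 2.74), and *Lars* (235 to 486). Under quantile normalisation, as under total count scaling, 16 of the 20 were above 0 and 0 were called. Relative to all genes these scalings differed: 14 of the 20 lay above the median of all genes under quantile normalisation and 20 under total count scaling. The list median lay 0.85 above that of all genes with library-size values, 0.84 with total count scaling, and 0.20 with quantile normalisation. Of 9 amino acid transporters 1 was called higher and 1 lower (median -0.10). *Slc7a3*, a carrier of cationic amino acids, rose from 39.5 ± 2.51 to 105 ± 3.78, and *Slc6a9*, a glycine transporter, fell from 11.1 ± 2.26 to 2.12 ± 0.10.

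Of the 4 eIF2α kinases 0 were called in either direction, with log2 fold changes of -0.27 to 0.23. Among 10 genes of eIF2, its exchange factor eIF2B, and the eIF2α phosphatase, 1 was called higher and 0 lower (median 0.68). It was *Eif2b5*, the catalytic subunit of eIF2B, which rose from 141 ± 7.28 to 374 ± 2.22 and was at 0.88 and 0.98 on the log2 scale under quantile and total count scaling. The median of these 10 genes lay 0.71 above that of all genes with library-size values, 0.70 with total count scaling, and 0.20 with quantile normalisation. Among 8 bZIP partners and stress factors, 1 was called higher and 1 lower (median 0.10). *Atf3*, a stress-induced repressor and known target of ATF4, fell from 49.7, 44.4, 31.2, and 43.8 in control to 4.45, 7.62, 6.35, and 7.19 in KD. Its log2 fold change was -2.64 ± 0.14 (adjusted p = 3.20e-15, limma) and ran from -3.05 to -1.64 under the 4 scalings. The gene called higher, *Nupr1*, was low (1.18 to 2.95), and its groups overlapped.

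Of 11 other ATF4 targets with a value, 2 were called higher and 0 lower (median 0.37). These were *Vegfa*, the angiogenic growth factor (22.2 ± 3.19 to 57.2 ± 2.73), and *Map1lc3b*, a protein of the autophagosome (56.1 ± 6.97 to 129 ± 8.46). Of 21 genes of the ER unfolded protein response 5 were called higher and 0 lower (median 0.33). *Sec61b*, a subunit of the ER translocon, rose from 24.5 ± 2.78 to 130 ± 9.68, with a log2 fold change of 2.39 ± 0.08. *Hspa5*, the ER chaperone BiP, rose from 555 ± 29.7 to 1426 ± 30.7 (1.36 ± 0.06), and *Sdf2l1*, an ER chaperone partner, from 26.6 ± 1.91 to 62.8 ± 3.26 (1.23 ± 0.08). The other called genes were *Pdia6* and *Ero1l*, which act in disulphide formation. *Ern1*, which encodes the IRE1 that splices *Xbp1*, had a log2 fold change of -0.76 (adjusted p = 3.02e-07, limma). Its KD libraries all lay below its control libraries, but the fold threshold was not reached, and the value was 0.24 under spike-in scaling. By adjusted p below 0.01 alone, 13 genes of this list were higher and 3 lower, beside 35.4% and 37.3% of all genes. The list median lay 0.36 above that of all genes with library-size values, 0.35 above with total count scaling, and 0.05 below it (-0.05) under quantile normalisation.

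**Figure D3:**
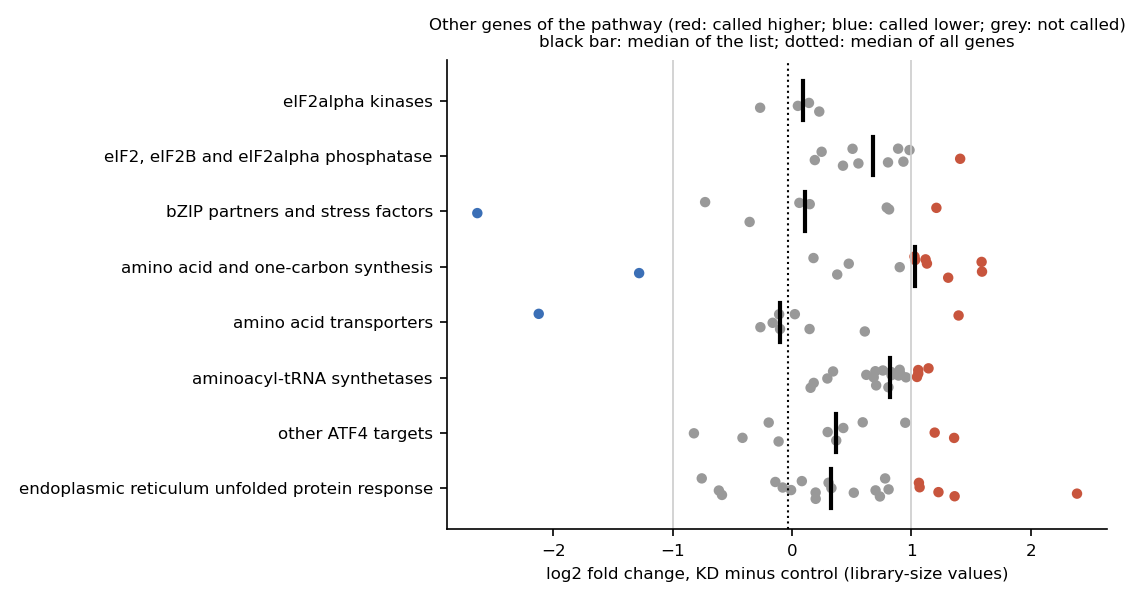
Log2 fold changes, KD minus control, of the 95 other pathway genes with a value, 1 point per gene by list (red called higher, blue called lower, grey not called), with list medians as black bars and the median of all genes dotted. Synthesis enzymes have a median of 1.03 and the 4 kinases lie between -0.27 and 0.23.

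Chromatin RNA was read to see which members had transcripts held on chromatin in E14 cells, with 1 condition and so no comparison. The 2 libraries held 3441643 and 3393923 counts, of which 69.9% and 67.3% fell on the 10 highest genes, leaving a median count per gene of 5 and 8. *Asns* had 61 and 122 counts, *Psat1* 44 and 72, and *Atf4* 16 and 21. *Ddit4* had 12 and 13, *Phgdh* 9 and 8, *Xbp1* 3 and 28, *Trib3* 1 and 6, and *Chac1* 3 and 4. *Ddit3* and *Slc7a11* had 0 and 1 counts each, and a count of 0 allows up to 0.872 CPM (3 counts) in the first library, for counting error only. As a ratio, the counts of *Xbp1* differed between the libraries more than those of any other member with more than 10 counts in all. Per kb of exon, *Asns* stood at the 98.6th, *Psat1* at the 96.1st, and *Atf4* at the 88.0th percentile of genes. *Phgdh* was at the 68.3rd percentile in chromatin RNA against the 85.5th in control RNA-seq, and *Ddit3* at the 19.9th against the 77.8th, with few counts behind both ranks.

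FACT peaks were read to see where its subunits were found at these genes in E14 cells. There is 1 deposited peak list per subunit, called by the authors on the replicates together and in mm10 (GRCm38), with no heights, so no replicate error can be given. By the deposited gene assignment, 6 of 10 members carried an SSRP1 peak, beside 36.0% of all genes, and 4 carried a SUPT16 peak, beside 18.6%. Within 1000 bp of a start site these were 4 (26.0% of all genes) and 2 (15.6%), and among peaks of at least 500 bp they were 5 (17.6%) and 2 (6.08%). *Asns*, *Psat1*, and *Slc7a11* had no peak of either list.

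*Ddit3* was the only member with both subunits over its start site. Its SSRP1 peak at chr10:127290044-127292200 covered the start and first exon and overlapped both SUPT16 peaks, at chr10:127289680-127290310 and chr10:127290590-127291710. SSRP1 peaks also covered the starts of *Trib3* (chr2:152342960-152344626), *Chac1* (chr2:119350476-119352436), and *Xbp1* (chr11:5520634-5521222). *Chac1* carried 5 SSRP1 peaks in all, the last ending at position 119357042 beyond the gene, and 0 SUPT16 peaks. The promoter windows of *Chac1* and *Trib3*, with their TGATGNAA matches, lie wholly inside these peaks, and that of *Xbp1* partly.

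*Atf4* differed from them. It had no SSRP1 peak, and its SUPT16 peak at chr15:80256260-80259270 was the longest assigned to any member (3010 bp), began 1076 bp after the start site, touched exons, and ran past the end of the gene. *Phgdh*, which rose most, had no peak over the start: SSRP1 lay in an intron (chr3:98336532-98336826) and 8323 bp upstream (chr3:98348292-98348684), and SUPT16 in an intron 959 bp after the start (chr3:98338800-98339010). Beyond the end of *Ddit4*, an SSRP1 peak (chr10:59949050-59949638) and a SUPT16 peak (chr10:59949260-59949610) overlapped, and a further SUPT16 peak lay at chr10:59933720-59933930. Members called higher were found with a peak over the start site (*Xbp1*), with peaks elsewhere (*Phgdh*), and without a peak (*Psat1*), and the members not called likewise.

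**Figure D4:**
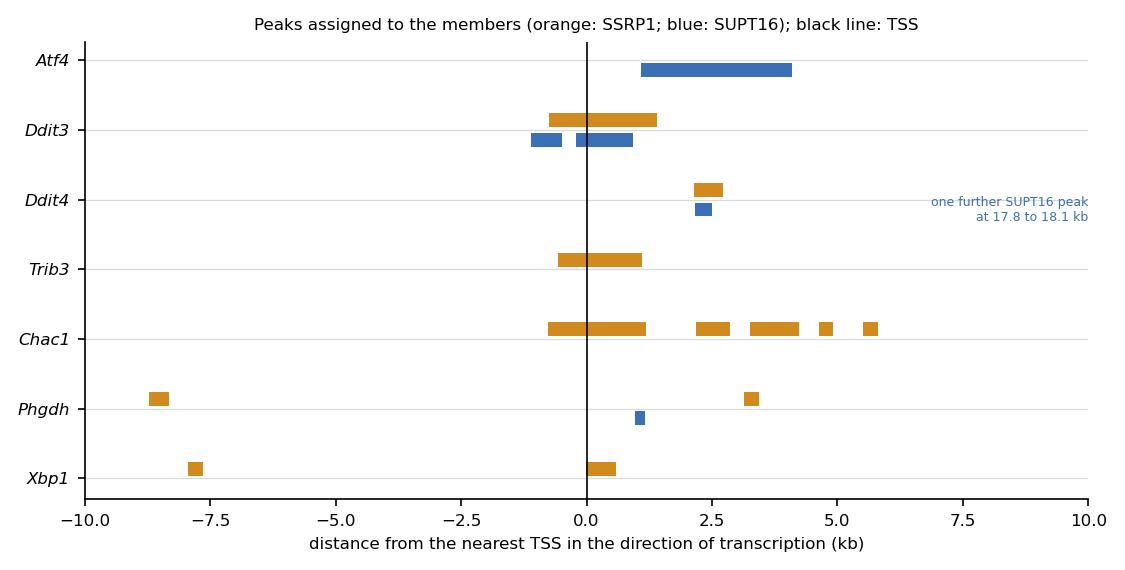
SSRP1 (orange) and SUPT16 (blue) peaks assigned to the 7 members that have any, drawn to scale by distance in kb from the nearest start site (black line) in the direction of transcription. *Ddit3*, *Trib3*, *Chac1*, and *Xbp1* have an SSRP1 peak over the start site, and the *Atf4* SUPT16 peak begins 1076 bp after it.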

How the data were processed

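For RNA-seq of 4 control and 4 KD libraries, the authors aligned reads to mm10 with STAR (the methods and the processing notes differ in the version, 2.4.1b and 2.5.1b), took gene counts from featureCounts above a minimum of 1 CPM, and deposited the counts as a scaled signal, to library size and to spike-ins. The step between values gave back whole reads (100% of values within 0.1). The log2 averages of NPC and ES cell libraries are the authors' means, and the authors' fold changes and p-values for genes and exons were left unused. Chromatin RNA was deposited as a raw count per gene. The authors used Bowtie2, PePr, and ChIP-Enrich to call and assign peaks.

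All 15384 genes entered limma 3.58.1 (trend, Benjamini-Hochberg) as log2(library-size value + 0.5). Other settings were pseudocounts of 0.1 and 2, a minimum mean of 5, other scalings, no trend, a replicate block, leaving out single libraries, and recovered reads in DESeq2 1.42.0 or edgeR 4.0.16. In a simulation of 200 changed genes among 15384, limma recovered 96% at 2-fold and 100% at 4-fold, with 4 false calls. Recovery was counted by sign and adjusted p below 0.01, without the fold threshold that a call needs here. Equal numbers of genes were raised and lowered and no shift of all genes was simulated, so it does not test the scalings. Replicates differed beyond sampling noise (chi-square per degree of freedom 1.88 to 6.61). Named were the members, up to 3 called genes per list with the largest change among those without overlap, *Ssrp1*, *Supt16*, and the 5 genes nearest to *Atf4*; *Lars*, *Aldh1l2*, *Nupr1*, *Pdia6*, *Ero1l*, and *Ern1* were named after their values were seen. The members and lists were chosen with earlier results of these data known. R 4.3.3 and Python 3.11.15 were used.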

Additional observations from a re-analysis of the deposited data

Results flagged for a closer look

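In 2 of the 20 groups of 4 libraries (10 genes, control and KD), 1 library stood apart from the other 3 by Dixon's test, where chance gives about 1 in 20. *Trib3* in KD replicate 2 had a value of 17.18, with a gap to the nearest library of 0.954 of the range of the group. *Xbp1* in KD replicate 2 had a value of 105.3, with a gap of 0.94 of the range. Without KD replicate 2 both genes kept the side of the threshold they had with all libraries.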

How the results depend on the processing

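With library-size values 1242 genes were called higher and 3163 lower. Spike-in scaling gave 7394 and 1082, total count scaling (added after seeing the data) 343 and 4696, and quantile normalisation 1518 and 1656. A minimum mean value of 5 gave 2024 lower, and adjusted p alone 5447 higher and 5745 lower. Members called higher numbered 3, and 7 under spike-in scaling. Of the other pathway genes 21 were called higher and 3 lower, against 76 higher under spike-in scaling, 10 under quantile normalisation, 3 higher and 8 lower under total count scaling, and 63 and 11 by adjusted p alone. The cause was not tested, other than that these settings differ by construction in scale, in genes tested, or in the fold threshold.

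Of 199 refitted log2 fold changes of members, 19 changed sign and 2 lost the call, both of *Xbp1* (0.90 by quantile and 0.75 by total count scaling). *Atf4* changed sign by quantile (-0.18) and total count (-0.30) scaling, *Ddit3* (-0.39) and *Slc7a11* (-0.38) by total count scaling, *Ddit4* by spike-in scaling (0.97), and *Chac1* by spike-in (0.34) and quantile (0.56) scaling. *Trib3* changed sign by spike-in (0.99), size factor (0.027), and quantile (0.23) scaling and by DESeq2 (0.00109). With each library left out in turn, *Ddit3* ranged from -0.0189 to 0.0775, *Ddit4* from -0.0996 to 0.0446, *Trib3* from -0.102 to 0.0977, and *Slc7a11* from -0.0726 to 0.134; these 4 log2 fold changes were near 0 with all libraries. *Phgdh* and *Psat1* were called under every alternative run.

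Same-numbered control and KD libraries did not deviate together (correlations of deviations -0.0570 to 0.0176). Libraries made side by side need not deviate together, so this does not settle whether the numbers pair the samples. The fit with the replicate block called the same 1242 genes higher and 3163 lower, all of them shared. These are also the numbers of genes past the fold threshold in either fit. The fold threshold alone thus set the calls, and their agreement holds no information on pairing.

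SUPT16 peaks were assigned to 4 members, and to 2 when a peak had to lie within 1000 bp of a start site and to 2 when it had to be at least 500 bp long. The precision of *Chac1* is limited by its counts, 25 to 35 reads in control and 22 to 62 in KD libraries.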
